A study of Mus musculus with 2 samples.

Results

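Mas-related G protein-coupled receptors (Mrgpr genes), together with the mast cell genes Hdc and Ms4a2, were examined in dorsal skin of aged mice with and without red light. The 9 genes were chosen by their presence in the authors' table of genes that differ between the groups: every row whose symbol begins with Mrgpr, 7 in number, plus Hdc and Ms4a2, out of 4183 rows. Because that table lists genes for their difference in mean level, the levels and ratios of these 9 genes are given as a description and no test was made on them. Skin came from C57BL/6 mice aged 18 to 20 months, a standard inbred strain, either untreated or irradiated daily for 28 days with red light at 8 J/cm². GEO describes 1 sample per group, and the table holds 1 mean per gene and group in FPKM, a level relative to the library's size and to the length of the transcript. How many animals or libraries stand behind a mean is not stated, and no spread, interval or p-value accompanies any value. The depth of sequencing is unknown, since FPKM keeps no counts.

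Mast cells are tissue-resident immune cells that store histamine, heparin-like chains and proteases in granules and empty them within minutes of activation. One route of activation runs through IgE held on its high-affinity receptor, and another, independent of IgE, through Mrgprb2, which in mouse connective tissue mast cells responds to basic peptides and several drugs and is the functional counterpart of human MRGPRX2. Other Mrgpr receptors belong to itch- and touch-sensing neurons, to smooth muscle and to further cell types, and several remain without an agreed ligand. Hdc makes histamine from histidine, and Ms4a2 encodes the beta chain of the IgE receptor.

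Mrgpr genes lie in clusters. RefSeq (GRCm38.p6) annotates 32 Mrgpr entries in the mouse, 20 of them protein-coding, and all 7 listed genes are on chromosome 7. Mrgprb1, Mrgprx2 and Mrgprb2 are neighbours in the order of Mrgpr entries, and Mrgprb3 follows after 1 pseudogene. Mouse Mrgprx2 also carries the older name Mrgprb10 and is a different gene from Mrgprb2. Mrgprg and Mrgprf lie apart from this cluster, beside Mrgpre and Mrgprd, while Mrgpra2a sits next to its copy Mrgpra2b. Other family members, among them Mrgprd, Mrgpra3 and Mrgprx1 of sensory neurons, were not listed, so they have no value here.

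The bases just before the start sites are shown for the 3 mast cell receptor genes of the cluster, to set their sequences side by side, and for Ms4a2, for the GATA-type letters it holds. RefSeq gave a promoter for 7 of the 9 genes. The build the authors used is not given, and the positions are those of RefSeq on GRCm38.p6, all on the minus strand. The 250 bases before the start are at chr7:48456343-48456592 for Mrgprb1, chr7:48499271-48499520 for Mrgprx2, chr7:48558087-48558336 for Mrgprb2 and chr19:11623720-11623969 for Ms4a2. Capitals in the 3 receptor promoters mark the longest run that all 3 share, and in Ms4a2 the letters AGATAA, a core that GATA factors bind, read on either strand.

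Mrgprb1: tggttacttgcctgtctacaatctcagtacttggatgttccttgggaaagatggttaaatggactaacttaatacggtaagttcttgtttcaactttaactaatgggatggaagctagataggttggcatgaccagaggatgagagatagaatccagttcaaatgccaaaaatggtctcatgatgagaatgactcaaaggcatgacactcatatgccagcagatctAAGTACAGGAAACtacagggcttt
Mrgprx2: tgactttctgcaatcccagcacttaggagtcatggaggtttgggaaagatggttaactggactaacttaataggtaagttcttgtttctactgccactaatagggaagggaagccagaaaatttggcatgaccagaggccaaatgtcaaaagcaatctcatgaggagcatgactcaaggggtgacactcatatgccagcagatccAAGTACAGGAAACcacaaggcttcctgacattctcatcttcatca
Mrgprb2: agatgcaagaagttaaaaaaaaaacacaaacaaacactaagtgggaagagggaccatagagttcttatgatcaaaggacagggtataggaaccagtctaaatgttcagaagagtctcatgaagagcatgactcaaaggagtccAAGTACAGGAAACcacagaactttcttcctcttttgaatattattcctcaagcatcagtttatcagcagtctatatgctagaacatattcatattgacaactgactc
Ms4a2: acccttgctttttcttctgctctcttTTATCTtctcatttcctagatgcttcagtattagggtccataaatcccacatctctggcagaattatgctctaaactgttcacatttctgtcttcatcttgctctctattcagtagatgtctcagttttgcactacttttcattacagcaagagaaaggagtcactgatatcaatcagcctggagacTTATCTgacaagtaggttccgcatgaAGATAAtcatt

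The shared run is 13 bases long and begins at position -24 in Mrgprb1, -45 in Mrgprx2 and -107 in Mrgprb2, counted from the start site. On either strand it occurred in 5 of 32851 promoters, or 0.0152%, and the other holders were Gtdc1 and Slco6c1. Aligned end to end, Mrgprb1 and Mrgprx2 had 75.6% of their 250 bases in common. Mrgprb1 and Mrgprb2 had 125 of 250 bases in common, against 48.8% for Mrgprb1 with Mrgprg and 53.6% for Mrgprb1 with Ms4a2. Over the bases that could be aligned without gaps, the share was 66.8% for Mrgprb1 with Mrgprb2 and 72.1% for Mrgprx2 with Mrgprb2. It was 51.7% for Mrgprb1 with Mrgprg, a gene of the same receptor family. For pairs outside the family it was 59.8% for Mrgprb1 with Ms4a2 and 56.5% for Mrgprb2 with Hdc. AGATAA occurred at -224, -37 and -11 in Ms4a2 and in no other of the 7 promoters, against 9.99% of all promoters. The related TGATAA was found in Mrgprb2 and Mrgpra2a and in 7.94% of all promoters. Other GATA-type forms were not counted, among them AGATAG, which the Mrgprb1 sequence above holds unmarked. The marked letters thus do not set Ms4a2 apart as the only one of these promoters with GATA-type letters. The letters CATGTG and CACGTG, forms of the E-box that MITF-type factors bind, were in none of the 7 windows and in 12.3% and 6.02% of all promoters. These matches describe letters only.

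All 9 genes had the lower mean after red light, and all 9 carry the authors' DOWN label. Of all listed rows 61.3% were lower, each by about 2-fold or more, so the choice of members already fixes that each differs by that much. The median log2 ratio of all listed rows, -1.21, is taken over 2566 lower and 1617 higher rows. It is therefore not the typical ratio of a lower row. At least 4-fold lower were 5 of the 9 genes, with Mrgpra2a at 0 counted among them, against 18.9% of all rows. At least 8-fold lower were 3 of the 9, namely Mrgprg, Mrgprb3 and Mrgpra2a, against 3.42% of all rows. In bulk skin, fewer cells of a type and less RNA per cell cannot be told apart.

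**Figure D1:**
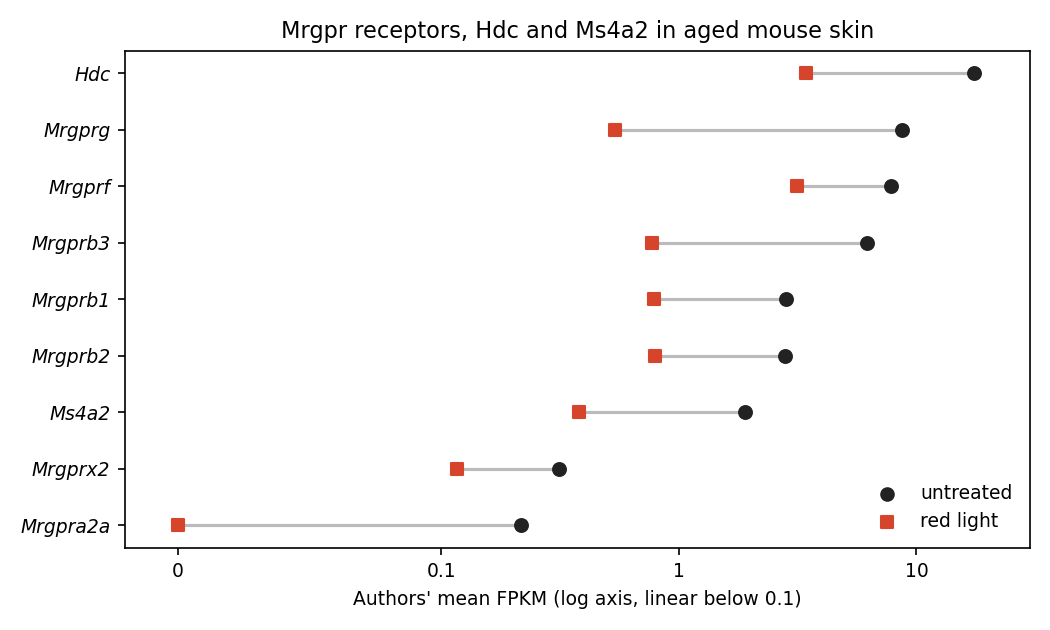
Authors' mean FPKM of the 9 genes in untreated (circles) and red light (squares) skin, 1 mean per gene and group, on a log axis that is linear below 0.1. Every square lies left of its circle; Hdc has the highest mean in both groups, and Mrgpra2a is at 0 after red light.

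Without a pseudocount, Hdc and Ms4a2 were lower by larger factors than the mast cell Mrgpr receptors. Hdc, the histamine-forming enzyme, stood at 17.4 FPKM in untreated and 3.43 FPKM in red light skin, 5.07-fold lower (log2 ratio -2.34). Ms4a2, whose product amplifies signals of the IgE receptor, stood at 1.90 and 0.380 FPKM, 5-fold lower (log2 ratio -2.32). The ratios of these 2 genes were nearly equal without a pseudocount. With a pseudocount of 1 FPKM, which shrinks ratios of scarce genes, the log2 ratio was -2.05 for Hdc and -1.07 for Ms4a2, and the latter then lay beside Mrgprb1 at -1.10 and Mrgprb2 at -1.09. Of the 4183 rows, 485 were lower by a larger factor than Hdc and 500 by a larger factor than Ms4a2.

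Among the Mrgpr receptors ascribed to mast cells, Mrgprb2 went from 2.80 to 0.790 FPKM, 3.55-fold lower (log2 ratio -1.83). Mrgprb1, also reported in connective tissue mast cells, went from 2.83 to 0.783 FPKM, 3.61-fold lower (log2 ratio -1.85). Mrgprb1 and Mrgprb2 thus had almost the same mean in untreated skin and almost the same mean after red light. Mrgprx2, which lies between them, was much scarcer, at 0.313 and 0.117 FPKM, 2.69-fold lower (log2 ratio -1.43). The 5 mast cell members together summed to 25.3 FPKM in untreated and 5.50 FPKM in red light skin. Most of both sums was Hdc, at 17.4 and 3.43 FPKM. The median log2 ratio of the 5 members was -1.85 against -1.21 over all listed rows, higher rows included. Of the 2566 lower rows alone, 945 were lower by a larger factor than Mrgprb1, the median member. With the pseudocount of 1 FPKM the median of the 5 members was -1.09, the same as the -1.09 of the stromal member Mrgprf. The log2 ratio of Mrgprx2 was then -0.23.

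Reads that fit several family members could blur such values. The reading frames of Mrgprb1 and Mrgprb2 were identical at 73.3% of aligned bases, and none of the 4136 windows of 50 bases in the longest Mrgprb1 transcript, nor of the 2028 in Mrgprb2, occurred in a transcript of another gene (GENCODE M21, exact matches on either strand). Mrgprx2, 85.1% identical to Mrgprb1, shared 0 of its 4561 windows, and neither Mrgprb3, Mrgprg, Mrgprf nor Hdc shared any. Ms4a2 shared 2.69% of its windows, all with Ms4a4b. Mrgpra2a was the exception, with 87.5% of windows found elsewhere, nearly all in Mrgpra2b, to which its frame was 99.8% identical. The 250 promoter bases of Mrgpra2a and Mrgpra2b were the same throughout. No exon of the 9 genes overlapped an exon of another gene in that annotation, so an antisense partner does not enter their values there.

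**Figure D2:**
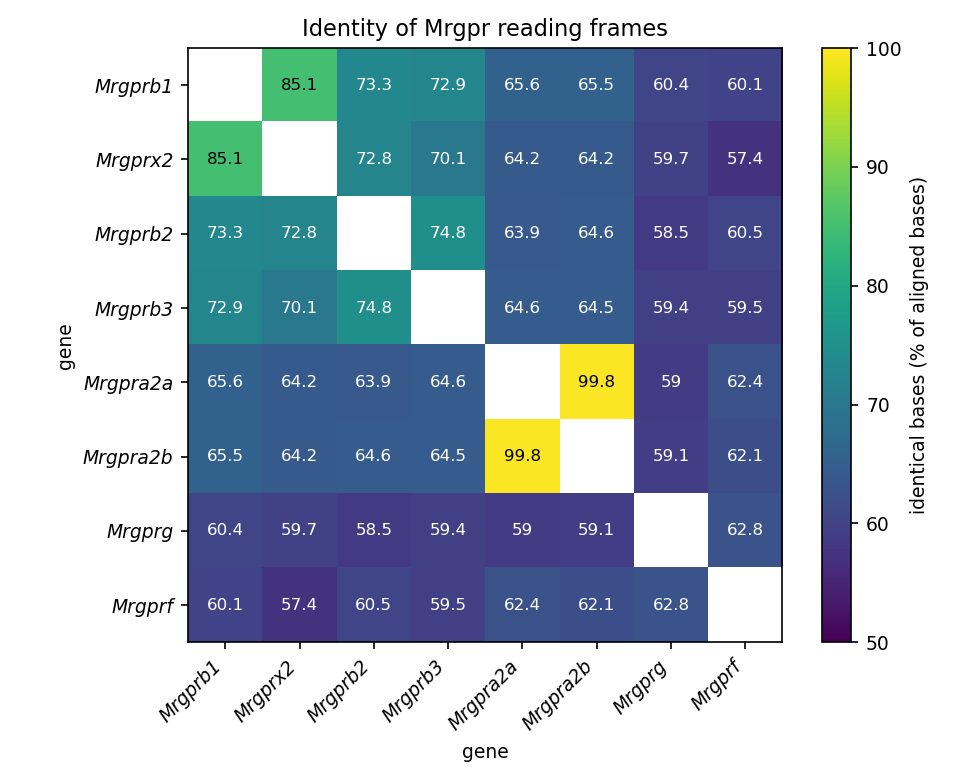
Percent of aligned bases that are identical between the longest open reading frames of the listed Mrgpr genes and Mrgpra2b, for each pair of genes. Mrgpra2a and Mrgpra2b stand at 99.8% and Mrgprb1 and Mrgprx2 at 85.1%, with every other pair at 74.8% or less.

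Receptors outside the mast cell class spanned the whole range. Mrgprf, an orphan receptor of smooth muscle and other stromal cells, stood at 7.83 and 3.15 FPKM, 2.49-fold lower (log2 ratio -1.31). Its ratio was near the median of the table, which includes the higher rows, but 1862 of the 2566 lower rows were lower by more. As deposited it had the smallest ratio of the 9 genes. That rank did not hold with pseudocounts: Mrgprx2 was at -0.93 against -1.29 for Mrgprf with 0.1 FPKM, and with 1 FPKM Mrgprx2, Mrgpra2a, Ms4a2 and Mrgprb2 were all nearer to 0 than Mrgprf. Mrgpra2a, of a subfamily known from sensory neurons and also described in neutrophils, was at 0.217 FPKM in untreated skin and is listed at 0 after red light, so no fold is given. Its levels are low and its reads can seldom be told from those of Mrgpra2b.

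Mrgprg and Mrgprb3, which were given no cell type beforehand, showed the largest ratios with a value in both groups. Mrgprg, an orphan receptor, went from 8.73 to 0.537 FPKM, 16.3-fold lower (log2 ratio -4.02), and 42 rows of the table were lower by more. Mrgprb3, the near neighbour of Mrgprb2, went from 6.16 to 0.767 FPKM, 8.04-fold lower (log2 ratio -3.01). In untreated skin Mrgprb3 was above Mrgprb1 and Mrgprb2, and after red light its mean was slightly below both. In untreated skin the 9 genes ranked Hdc, Mrgprg, Mrgprf, Mrgprb3, Mrgprb1, Mrgprb2, Ms4a2, Mrgprx2 and Mrgpra2a by mean FPKM. After red light the order was Hdc, Mrgprf, Mrgprb2, Mrgprb1, Mrgprb3, Mrgprg, Ms4a2, Mrgprx2 and Mrgpra2a. Without a spread, neighbours in either order cannot be separated.

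Mast cell granule genes, from a list of 20, had 9 listed members, all lower, with a median of 2.92-fold and a log2 median of -1.54. The 9 include Hdc. Over all listed rows 61.3% were lower and the log2 median, higher rows included, was -1.21. Mcpt4 and Cma1, chymase-type proteases of connective tissue mast cells, stood at 128 and 77.2 FPKM in untreated and at 40.5 and 26.5 FPKM in red light skin, 3.17-fold and 2.92-fold lower. Srgn, the proteoglycan core on which granule contents are packed and which other blood cells also make, was 2.76-fold lower. Tpsg1, a membrane-anchored tryptase, was 4.56-fold lower, from 3.96 to 0.870 FPKM. Against the median log2 ratio of -1.51 of the 8 granule genes other than Hdc, Hdc lay -0.84 and Ms4a2 -0.82 away on the log2 scale. Mrgprb1 and Mrgprb2 lay -0.35 and -0.32 from that median, and Mrgprx2 0.08 above it. Mrgprb3 and Mrgprg lay -1.50 and -2.52 from it. Whether these distances exceed the variation between animals cannot be judged from group means.

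Genes of mast cell identity and survival had 9 listed of 21, of which 8 were lower, against 61.3% of all rows. The 9 include Mrgprb1, Mrgprb2 and Mrgprx2 themselves. Without these receptors 5 of 6 genes were lower, with a log2 median of -1.47. Gata2 and Gata1, transcription factors of the mast cell lineage, were 3.06-fold and 4.02-fold lower, Gata1 at only 0.563 and 0.140 FPKM. Il1rl1, the receptor for interleukin 33, was 3-fold lower, from 3 to 1 FPKM. Slc7a8, an amino acid transporter that many cells use, was the exception, at 7.26 FPKM in untreated and 59.5 FPKM in red light skin. Of 9 defining mast cell markers 7 were in the table and all 7 were lower, with sums of 329 and 111 FPKM. The 7 include Hdc, Ms4a2 and Mrgprb2 themselves, and none was at 0. Kit and Fcer1a were not listed, so they have no value here.

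In the signalling list of the high-affinity IgE receptor 13 of 22 genes were listed. All 13 were lower, with a log2 median of -1.54, against 61.3% lower and a median of -1.21 over all rows, higher ones included. Dermal fibroblast genes were likewise lower in 10 of 11 and peripheral glia genes in 8 of 8, as given below. Ms4a2 had the largest ratio of the 13 genes. Fcer1g, the gamma chain that several Fc receptors of other immune cells use as well, went from 73.5 to 27.1 FPKM, 2.71-fold lower. The lipid phosphatase Inpp5d, a brake on the pathway, was 2.91-fold lower and the calcium channel Itpr1 2.61-fold lower. Among enzymes of lipid mediators 5 of 6 listed genes were lower, against the same 61.3% of all rows. Ptgs1, the constitutive cyclooxygenase, was 5.33-fold lower and Alox5ap, the partner of 5-lipoxygenase, 3.13-fold lower. Ptgds, a prostaglandin D synthase of other cell types, went from 2.10 to 30.3 FPKM.

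Histamine handling had 4 listed genes of 12. Beside Hdc, the histamine-degrading methyltransferase Hnmt was 2.49-fold lower and the amine oxidase Maob 3.24-fold lower, while the organic cation transporter Slc22a2 went from 0.0667 to 0.387 FPKM. The histamine receptors were not listed. Of signals that feed or recruit mast cells, 3 of 13 genes were listed and all were lower, against 61.3% of all rows. Ccl7 was lower by 4.06-fold, Ccl2 by 3.66-fold and the alarmin Il33 by 3.33-fold, the last from 15.1 to 4.55 FPKM.

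Genes for possible Mrgpr ligands went both ways: 4 of 6 listed genes were lower, a share near the 61.3% of all rows. Camp, the cathelicidin precursor, stood at 2.35 and 0.427 FPKM, 5.52-fold lower. Adm, whose precursor also yields the peptide PAMP, was 2.87-fold lower and the opioid precursor Penk 3.29-fold lower. Npy and Adm2 had higher means after red light, at 5.45 FPKM from 1.94 and at 1.24 FPKM from 0.150. The direct pairing of any of these peptides with a listed receptor was not tested.

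**Figure D3:**
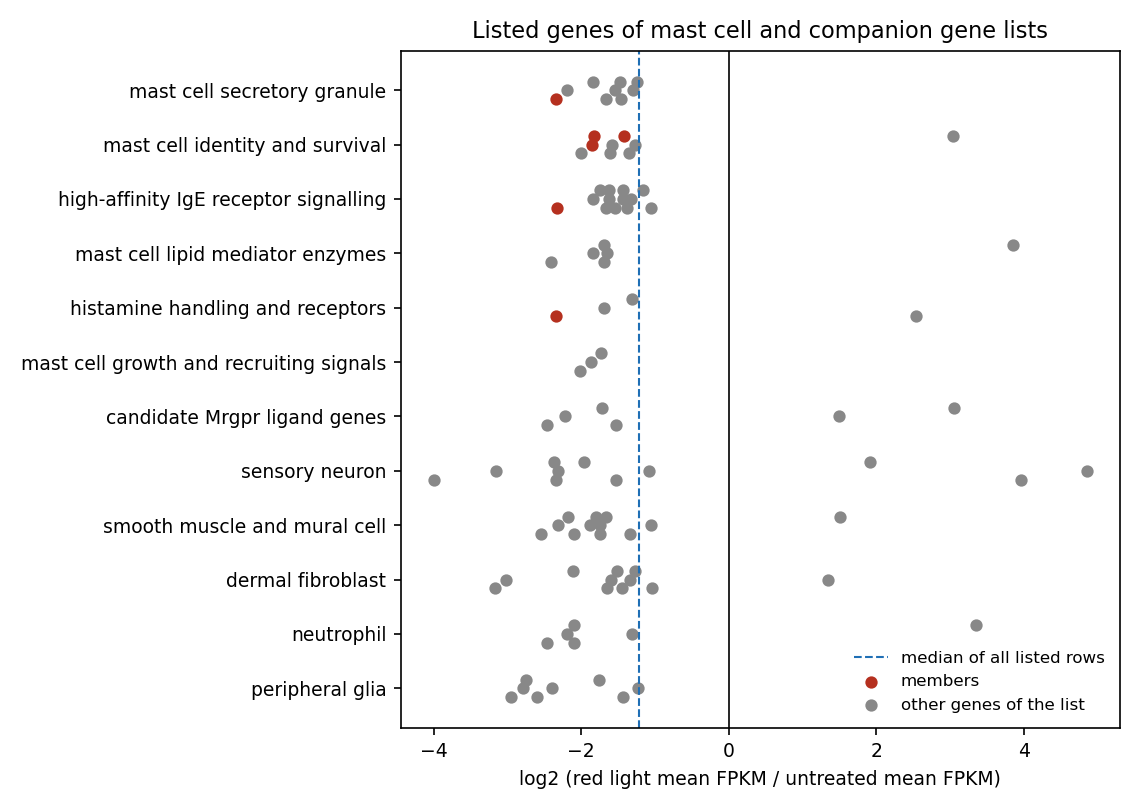
Log2 ratio of red light to untreated mean FPKM for every listed gene of 12 gene lists, with the 9 genes of interest in red where a list holds them and the median of all listed rows, -1.21, as a dashed line. Hdc and Ms4a2 are the leftmost points of the granule and IgE receptor rows; Mrgpra2a, at 0 after red light, is not drawn, and Mrgprf, Mrgprb3 and Mrgprg belong to no list.

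Lists for the other cell types that hold Mrgpr receptors are read against the same 61.3% of all rows lower. The median of -1.21 beside them includes the higher rows. For smooth muscle and mural cells, the setting of Mrgprf, 11 of 12 listed genes were lower, with a log2 median of -1.77 and sums of 799.7 and 264 FPKM. Des, a muscle intermediate filament also found in skeletal muscle, was 5.83-fold lower and Myl9 2.08-fold lower, while Smtn, a smooth muscle structural protein, went from 26.2 to 74.5 FPKM. Acta2 and Tagln were not listed. Dermal fibroblast genes were lower in 10 of 11, with a log2 median of -1.52, and Dcn, a small matrix proteoglycan, went from 864 to 275 FPKM. Col1a2, a collagen chain, was the exception at 215 and 545 FPKM. The ratio of Mrgprf, -1.31, was thus smaller in size than the median of either list.

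Sensory neuron genes had 12 listed of 40, of which 9 were lower, with a log2 median of -2.14. The 12 include Mrgpra2a itself. Without it 8 of 11 were lower, with a log2 median of -1.96. The sums of the 12 genes were 18.1 and 43.6 FPKM. The higher sum after red light came mainly from Tubb3, a tubulin, at 1.83 and 28.6 FPKM. Ret, a receptor for glial cell-derived factors, stood at 2.99 and 11.3 FPKM and the hydrolase Uchl1 at 3.13 and 1.08 FPKM. Trpm8, the cold sensor, was at 0.00333 and 0.0967 FPKM. Of 6 defining neuron markers Tubb3 alone was in the table. Neuron cell bodies lie outside the skin, which limits what such values say about receptors of nerve endings. Peripheral glia genes were lower in 8 of 8 with a log2 median of -2.50. Neutrophil genes, the other setting described for Mrgpra2a, were lower in 5 of 6 with a log2 median of -2.10. Their sums were nonetheless 24.5 FPKM in untreated and 41.2 FPKM in red light skin, since Padi4 stood at 3.51 and 35.8 FPKM. The part of any of these lists in the values of the 9 genes was not tested.

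Of the 91 other genes in these lists, those nearest in log2 ratio to Hdc and Ms4a2 were Avil, Th and Synpo2, at -2.34, -2.32 and -2.32. Avil and Th are from the sensory neuron list and Synpo2 is from the smooth muscle and mural cell list. Among the nearest to both Mrgprb1 and Mrgprb2 were Ptgs2 and the mast cell tryptase Tpsab1, at -1.85 and -1.84, and the nearest to Mrgprf were Csf3r, Hnmt and Gab2, at -1.31, -1.32 and -1.32. With only 2 group means per gene, likeness here means a similar ratio and nothing more.

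Transcripts of hair shaft and inner root sheath were far more abundant after red light, and since FPKM is relative they lower every other value. The 80 listed hair genes, weighted by mean GENCODE M21 transcript length, accounted for an estimated 0.0291% of fragments in untreated and 8.82% in red light skin. Counting only the remaining fragments raised every other log2 ratio by 0.13, a factor of 1.10. The log2 ratio of Hdc was then -2.21, that of Ms4a2 -2.19, that of Mrgprb2 -1.69 and that of Mrgprf -1.18. Set against the median of all listed rows instead, higher rows included, Hdc stood at -1.13, Mrgprb2 at -0.61, Mrgprx2 at -0.21 and Mrgprf at -0.10. On that scale Mrgprg stood at -2.81 and Mrgprb3 at -1.79. Krt10, a defining keratin of upper epidermis, was also lower, at 1600.3 and 379.9 FPKM.

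**Figure D4:**
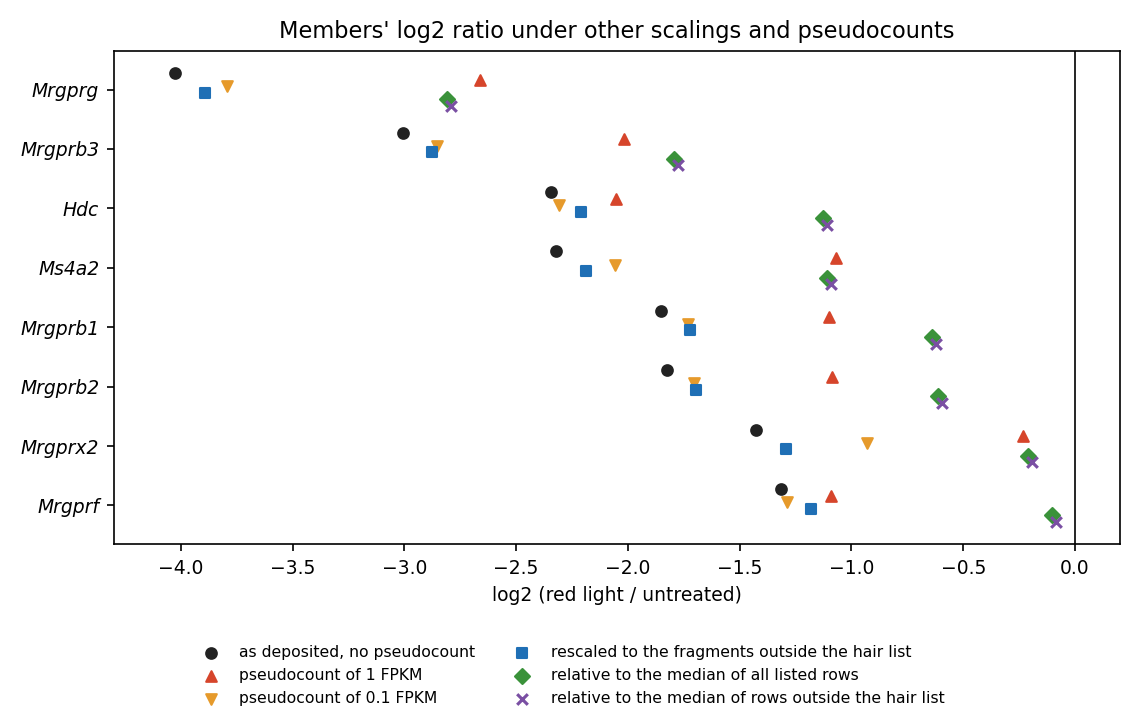
Log2 ratio of red light to untreated for the 8 genes with a value in both groups, as deposited and under 5 alternatives (2 pseudocounts, 1 rescaling to fragments outside the hair genes, and 2 references to a table median). All points lie below 0; the rescaling moves each gene by 0.13, while the table medians bring Mrgprf to -0.10 and -0.08.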

How the data were processed

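Polyadenylated RNA of dorsal skin was sequenced after Trizol extraction and an NEBNext Ultra library kit, per the labels' protocols; use of strand is not stated. Values are FPKM averaged within each group by the authors, with a direction label, per the file headers. DESeq2 1.40.2, R 4.3.1, RSEM and Bowtie2 2.2.8 are named without roles, per the submitters' processing notes; the build, annotation and criteria for listing a gene are not given in the sources used here. Every mean is a value that 3 numbers with 2 decimals can average to (tolerance 1e-06 after scaling to whole numbers), but the number of libraries is not stated. Depth is unknown, so no intervals or floors are given.

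Ratios of the red light to the untreated mean were computed here without a pseudocount, with direction taken from the means (4 of 4183 rows have means that go against their label, none of the 9 genes). The 9 genes, their classes and the 12 lists were chosen with earlier results of these data known. Named genes are the 9, the 2 list genes with the largest ratio in either direction and the 3 with the highest mean, plus the 3 nearest in ratio to 5 of the 9; the defining markers and list exceptions named besides follow the marker list or are in those counts; 1 gene that the rule names is not reported here. Shared windows, open reading frames, exon overlaps and mean transcript lengths came from GENCODE M21, promoters from RefSeq GRCm38.p6. The ratio and share calculations were tested on simulated data. Python 3.11.15, numpy 2.4.6, pandas 2.3.3, biopython 1.88 and matplotlib 3.10.9 were used.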

Additional observations from a re-analysis of the deposited data

How the results depend on the processing

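No member and no list median changed sign under any alternative run, but a pseudocount on both means leaves every sign as it is. Rescaling to the fragments outside the hair genes adds 0.13 to every log2 ratio, too little to change a sign here. Those settings bear on size only. A result was called moved when its fold changed by over 1.5 times. Rescaling to the fragments outside the hair genes moved 0 of the 8 members with a ratio and 0 of 12 list medians. That was fixed in advance, because its common shift is smaller than this limit. A minimum of 1 FPKM moved 0 of 12 list medians and left no value for the neuronal or neutrophil class. A pseudocount of 1 FPKM moved 6 of these 8 members and a pseudocount of 0.1 FPKM moved 0. Mrgpra2a, at 0 after red light, has no ratio to compare; with those pseudocounts its log2 ratios were -0.28 and -1.66. With the pseudocount of 1 FPKM the median log2 ratio was -1.09 for mast cell members, -1.09 for the stromal member and -2.34 for Mrgprg with Mrgprb3, and it was -0.82 for identity and survival, -0.64 for sensory neuron, -1.01 for neutrophil and -1.48 for peripheral glia genes. The mast cell and stromal medians, -1.85 and -1.31 as deposited, were thus alike with that pseudocount. Setting ratios against the median of all listed rows, or of those outside the hair genes, moved all 8. This too was fixed in advance, by a common shift larger than the 1.5-fold limit. At a log2 ratio of at least 2, 789 rows were lower and 761 higher, fewer by construction. No paired analysis was possible because the table holds group means, and for the same reason the alternatives for single libraries (limma, leaving out replicates, replicate block) were not run. How far counting error reaches into Mrgprx2 and Mrgpra2a, both under 0.5 FPKM, is unknown without depth.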
